A study of Homo sapiens with 35 samples.

Results

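Centromere flanks are the stretches of a chromosome that border its centromere. Here they were the 100-kb bins of the autosomes that lie within 5 Mb of the centromere gap and have a value in every cell, where the gap of a chromosome is its longest run of consecutive bins that hold no values. On chromosome 15 the stretch from 1 to 20000000 was taken. The rule found 1613 bins among 25097 used autosomal bins and 26584 used bins in all. They form 37 flanks on 21 chromosomes: 16 chromosomes have a flank on each arm, and the acrocentric chromosomes 13, 14, 15, 21 and 22 have 1 each. The flanks span 1850 bin positions, of which 237 had no values and were not used. No measured contact entered the choice of bins. Chromosome X was outside the rule, and chromosome 8 was not analysed here.

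The data are single-cell DamID profiles of lamin B1, a filament protein of the nuclear lamina, in 32 cells of the human leukaemia cell line KBM7, from clone 5-5, which the labels give as diploid (2N). All cells are of 1 group from 1 clone. They carry a Dam methylase fused to lamin B1 that was switched on by 15 h in 0.5 nM Shield1. Cells were sorted singly from the 2% smallest of those in which both Fucci markers of the cell cycle were detected. There was no second condition and no cell with unfused Dam, so every comparison below is between regions of the same cells. KBM7 carries the Philadelphia translocation between chromosomes 9 and 22, and the table names these chromosomes 9:22 and 22:9. Positions are in hg19, counted from 1.

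Human centromeres are built on arrays of alpha-satellite repeats, which short reads cannot place and which therefore appear as gaps in the genome build. The DNA beside the arrays, the pericentromere, is rich in satellite repeats and segmental duplications and is packed as constitutive heterochromatin marked by H3K9 trimethylation. Constitutive heterochromatin lies at the nuclear lamina and also around nucleoli, and the short arms of the acrocentric chromosomes carry the ribosomal RNA genes around which nucleoli form. Lamina-associated domains are the stretches of DNA that touch the lamina. They are mostly poor in genes and can differ from cell to cell.

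A bin counted as a lamina contact of a cell if its ratio of observed to expected reads (OE) there was 1 or more. The contact share of a flank is the percentage of its bins in contact in a cell, and the contact frequency of a bin is the percentage of the 32 cells in which it was in contact. Both copies of a chromosome and all of the 15 h feed into 1 call. Recovered reads ranged from 985 to 258225 per cell. In 3 shallow cells with 985 to 1755 reads, a single read was enough for a contact in any bin, and the other 29 cells had 40279 reads or more. Leaving out the 3 shallow cells left 18 flanks lower and 10 higher than the rest of their chromosome, as many as with them. Of all 520 windows of 5 Mb tiled outward from the gaps, 49.2% were lower and 35.8% higher without these cells.

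Bins of the flanks carried fewer expected reads than other bins. In a cell of median depth, the median flank bin had 4.11 expected reads and the median other bin 4.98. No read in any cell fell in 9.80% of the flank bins and in 4.38% of the other bins. A single read was enough for an OE of 1 in 23.9% of the flank bins and 5.09% of the other bins. Expected reads were lowest beside the gaps of chromosome 9:22, where the median bin had 0.0158 on the short-arm side and 0 on the long-arm side, and in the long-arm flank of chromosome 1 (0.190), the flank of chromosome 21 (0.221) and the short-arm flank of chromosome 2 (0.284). What part these low expectations have in the contact shares was not tested beyond the alternatives given with the results.

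The gap also depends on its definition. On chromosomes 3, 4, 7, 10 and 12 the longest stretch was 1 of 2 stretches of equal length, and the one nearer the start was taken. On 3, 4, 5, 9:22, 10, 12 and 20 the empty region is broken by 1 used bin and on 7 by several, and joining the pieces moves the gap's edge. On chromosome 21 the longest stretch runs from 1 to 9400000, so its flank lies between 9400001 and 14400000, ahead of a further stretch without values from 11200001 to 14300000, and holds 19 used bins. Joining the pieces and using that further stretch on chromosome 21, an alternative added after seeing the data, gave 19 flanks lower and 12 higher than their chromosome of 38. Of all 520 windows of 5 Mb tiled outward from these gaps, 51.3% were lower and 35.8% higher.

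Pooled over chromosomes, centromere flanks were less often in contact with the lamina than the other bins of the same chromosomes. With each of the 21 chromosomes weighted equally, the flank share was 18.2% ± 6.46 and the share of the other bins 22.6% ± 7.04 (SD, n = 32 cells). The difference was -4.32 ± 2.76 percentage points, lower in 31 of 32 cells (two-sided sign-flip permutation test over cells, p = 1e-05, the smallest that 100000 resamples can give). In single cells it ran from -9.36 over a median of -4.29 to 0.913 points. It kept its sign when each chromosome was left out in turn, from -6.03 points without chromosome 3 to -2.90 points without chromosome 18. Pooling bins without regard to chromosome gave -7.49 points, and that comparison also carries differences between whole chromosomes. These p-values measure only the spread between the sorted cells of this clone.

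The pooled value hid chromosomes that went opposite ways. Flanks had a lower share than the other bins on 12 chromosomes and a higher share on 9. Chromosome 18 was at one end, with 4.09% ± 3.86 in its flanks and 36.9% ± 14.6 elsewhere (SD, n = 32), and chromosome 3 at the other, with 60.5% ± 23.1 against 30.7% ± 9.95 (SD, n = 32). On chromosome 18 the flanks were lower in all 32 cells, and on chromosome 3 they were higher in 31 of 32 cells.

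Each flank was set against the bins of its chromosome outside both flanks, and the same was done for every 5-Mb window of the autosomes, tiled outward from the gap. Of the 37 flanks, 18 (48.6%) were lower, 10 (27.0%) were higher and 9 passed neither way (sign-flip permutation test over cells, Benjamini-Hochberg adjustment over 520 windows, threshold 0.05). Among all 520 windows, 49.4% were lower and 35.6% higher than their chromosome. The share of flanks called lower was thus near that of any 5-Mb window, and the share called higher was below it, a difference that was not tested. The next windows outward, from 5 to 10 Mb, were lower in 21 and higher in 7 of 37 cases. Their median difference was -6.04 points, against -2.76 points in the flanks and -3.11 points in all 520 windows. Of the 37 flanks, 2 had the highest share of all windows on their chromosome, the short-arm flank of chromosome 19 (12 windows) and the flank of 22:9 (3 windows). None had the lowest. The 520 windows lie on 21 chromosomes, each with a single highest window, so few flanks could hold that place, and these counts were not tested.

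**Figure D1:**
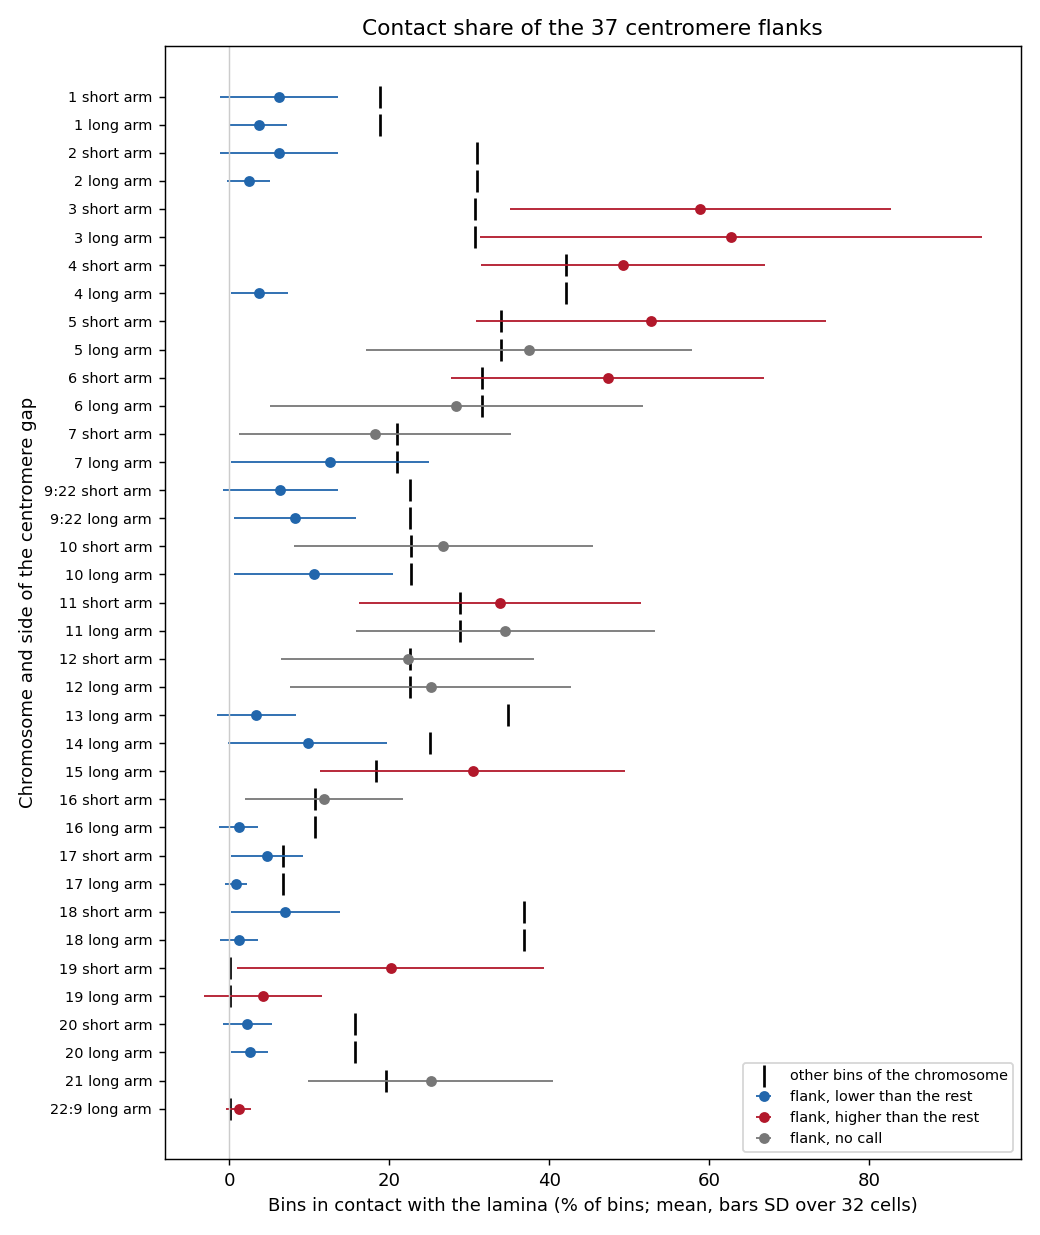
Contact share of each of the 37 flanks (points, mean; bars, SD over 32 cells; percent of bins on the horizontal axis) beside that of the other bins of the chromosome (black ticks). Flanks lower than the rest of their chromosome are blue, higher ones red and those without a call grey; the flanks of chromosome 3 lie near 60% and those of chromosomes 13 and 18 below 10%.

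The long-arm flank of chromosome 3 (92000001 to 97000000, 36 bins) had the largest positive difference. Its contact share ran from 0% over a median of 76.4% to 97.2% in the 32 cells, while the other bins of chromosome 3 averaged 30.7%. Most cells were high and a few low: of the 29 deeper cells, 22 had at least 60% of the flank in contact, 4 between 20 and 60%, and 3 less than 20%. The mean was 62.8% ± 31.3 (SD, n = 32), 32.1 ± 25.2 points above the other bins and with 27 of 32 cells higher (sign-flip permutation test, adjusted p = 1.47e-05). On the other side of the same centromere, the short-arm flank (85600001 to 90600000, 50 bins) ran from 4.00% over 67.0% to 88.0%. No deeper cell was under 20% there, and the mean of 58.9% ± 23.8 (SD, n = 32) lay 28.2 ± 16.2 points above the other bins (higher in 30 of 32 cells, permutation test, adjusted p = 1.47e-05). The summed OE of these flanks, which uses no limit, was also higher, at 2.31 ± 1.17 on the long arm and 2.06 ± 0.853 on the short arm against 1.29 ± 0.247 in the other bins (SD, n = 32).

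The short-arm flank of chromosome 19 (19700001 to 24700000, 50 bins) had the highest contact share of all windows of its chromosome, and the flank across the centromere the next highest. Outside its flanks the chromosome had a share of 0.129%. The short-arm flank ran from 0% over 12.0% to 64.0% in the 32 cells, with 3 cells at 0. Cells were spread along that range: of the 29 deeper cells, 14 were under 20%, 14 between 20 and 60%, and 1 above. The mean was 20.2% ± 19.2 (SD, n = 32), higher than the other bins in 28 of 32 cells (difference 20.1 ± 19.3 points, permutation test, adjusted p = 1.47e-05). The most frequently contacted bin reached 53.1% of cells. Contact rose from 4.38% in the 1 Mb beside the gap to 37.8% ± 34.1 at 2 to 3 Mb, fell to 14.7% ± 18.7 at 4 to 5 Mb and was 0% from 5 to 7 Mb (SD, n = 32). The long-arm flank (27700001 to 32700000) reached 4.19% ± 7.40 (SD, n = 32) and was higher than the other bins in 19 of 32 cells (permutation test, adjusted p = 2.88e-05). Median expected reads were 2.1 per bin on the short arm and 4.95 on the long arm, against 4.22 in the other bins.

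Chromosome 19 is the chromosome richest in genes for its size, and it holds clusters of KRAB zinc finger genes, which encode DNA-binding repressors. In RefSeq (GRCh38.p14), the 20 coding genes nearest the centromere on its short arm include 19 with a ZNF symbol, among 250 such genes of 1403 on the chromosome. On the long arm 2 of the 20 nearest genes have one, and the nearest gene there is UQCRFS1, which encodes the Rieske iron-sulphur subunit of respiratory complex III. On chromosome 10, 5 of the 20 nearest genes on the short arm and 6 on the long arm have a ZNF symbol. There the short-arm flank had no call and the long-arm flank was lower than its chromosome. The order of genes is along another build than the bins, so it places no gene on a bin. These genes and those given below were looked up after the contact values were known.

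Other flanks above their chromosome were the short-arm flanks of 5, 6, 4 and 11, the flank of 15 and the flank of 22:9. The short-arm flank of chromosome 5 had a share of 52.8% ± 21.8 (SD, n = 32), 18.8 points above the other bins, and that of chromosome 6 47.3% ± 19.6 (SD, n = 32), 15.7 points above (permutation test, adjusted p = 1.47e-05 in both). Within 10 Mb the difference on 5p was 3.00 points and did not pass (adjusted p = 0.117, permutation test). PRIM2, which encodes a subunit of DNA primase, is the coding gene nearest the centromere on 6p in RefSeq. The short-arm flank of chromosome 4 reached 49.3% ± 17.8 (SD, n = 32), 7.20 points above the other bins (adjusted p = 0.000165, permutation test). That call rests on its outer part: within 2 Mb of the gap it was -35.1 points from the other bins, and with any read taken as a contact -0.191. On chromosome 6 the flank within 2 Mb was likewise below the other bins, by -6.15 points.

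The short-arm flank of chromosome 11 was 33.8% ± 17.6 (SD, n = 32), 5.05 points above its chromosome (permutation test, adjusted p = 0.032). Its median bin had only 1.17 expected reads, against 5.13 in the other bins, and its summed OE of 0.644 ± 0.359 was below the 1.05 ± 0.275 of the other bins (SD, n = 32). With any read as a contact the difference was -3.57 points, so its direction depends on the measure. The long-arm flank of the same chromosome, at 34.5% ± 18.7 (SD, n = 32), had expected reads of 4.68 and missed the threshold (5.71 points, adjusted p = 0.059, permutation test). Within 2 Mb of the gap, contact on 11q was high, at 58.8% ± 33.7 in the first Mb and 69.7% ± 36.5 in the second (SD, n = 32). Olfactory receptor genes crowd both sides of this centromere in RefSeq, with 9 of the 20 nearest coding genes on the short arm and 18 of 20 on the long arm, among 171 of 1279 on the chromosome.

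**Figure D2:**
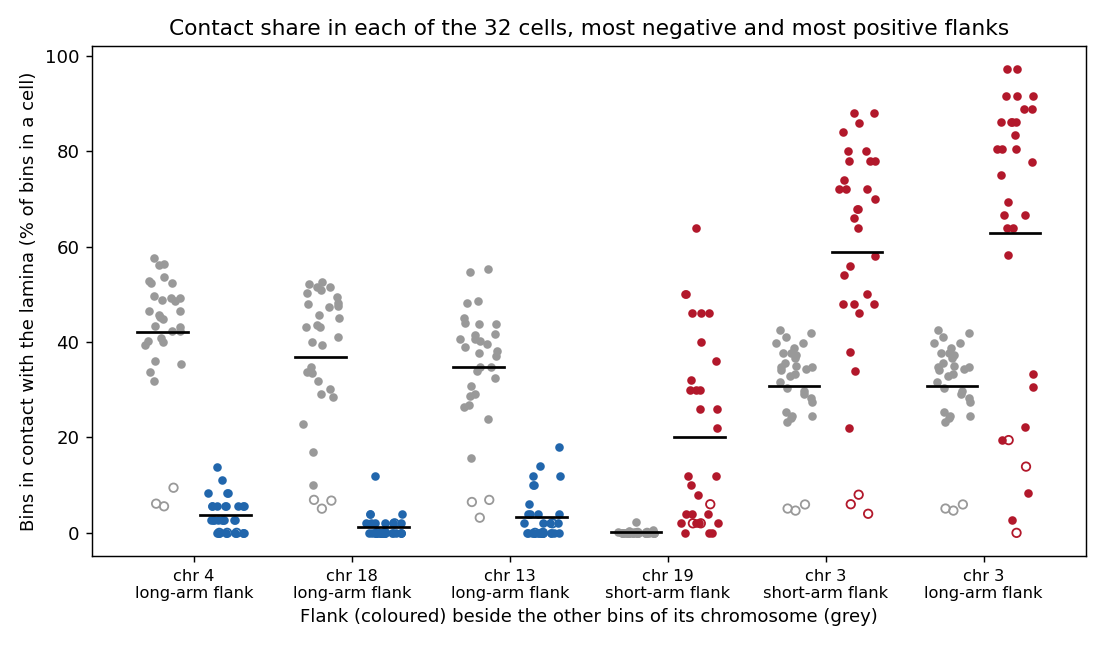
Percent of bins in contact in each of the 32 cells (vertical axis) for the 3 flanks most below and the 3 most above their chromosome, each beside the other bins of its chromosome (grey). Each point is 1 cell, open circles are the 3 shallow cells and black bars are means; the flank of 4q stays at or under 13.9% in every cell, and the flank of 3q reaches 97.2%.

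At the low end stood the long-arm flanks of chromosomes 4, 18 and 13, which made almost no contact on chromosomes that are otherwise among the more contacted. The long-arm flank of chromosome 4 (51100001 to 56100000, 36 bins) ran from 0% over 2.78% to 13.9% in the 32 cells. Its mean was 3.73% ± 3.57 (SD, n = 32), while the other bins of the chromosome averaged 42.1% ± 13.2. The difference was -38.3 ± 11.9 points, lower in all 32 cells (permutation test, adjusted p = 1.47e-05). The expected reads of its median bin were 5.04, above the 4.83 of the other bins.

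The long-arm flank of chromosome 18 (18500001 to 23500000, 50 bins) ran from 0% over 0% to 12.0%, and 21 of 32 cells had no contact there. Its mean was 1.19% ± 2.38 (SD, n = 32), -35.7 ± 14.7 points from the other bins (lower in all 32 cells, permutation test, adjusted p = 1.47e-05). The low contact ended close outside the flank, with 68.8 to 79.4% from 6 to 9 Mb, and within 10 Mb the difference was -4.87 points. All 50 of its bins were below their chromosome in the test per bin, against 47.7% of the chromosome's bins. The short-arm flank of 18 was at 7.00% ± 6.80 (SD, n = 32), with most of its contact in the 1 Mb beside the gap, where the share was 24.7% ± 21.4 and expected reads were 0.253 per bin. In RefSeq the first genes on the long arm are ROCK1, a kinase of the actomyosin cytoskeleton, then GREB1L and ESCO1, a cohesin acetyltransferase.

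The flank of chromosome 13 (19000001 to 24000000, 50 bins) ran from 0% over 1.00% to 18.0% and was empty of contacts in 16 cells. Its mean of 3.38% ± 4.96 (SD, n = 32) lay -31.4 ± 13.2 points from the other bins (lower in all 32 cells, permutation test, adjusted p = 1.47e-05). Both flanks of chromosome 2 were also low in all 32 cells, with 6.17% on the short arm and 2.42% on the long arm against 30.9% elsewhere, as were both flanks of chromosome 20, with 2.26% and 2.55% against 15.7%.

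The 3 chromosomes with large blocks of heterochromatin beside the centromere were 1, 9:22 and 16, whose gaps here were 21.0, 18.3 and 11.0 Mb long. On chromosome 1 the short-arm flank (116500001 to 121500000) ran from 0% over 2.08% to 20.8% and the long-arm flank (142500001 to 147500000) from 0% over 5.13% to 12.8%. Their means of 6.25% ± 7.39 and 3.69% ± 3.56 (SD, n = 32) were below the 18.9% of the other bins in all 32 cells (permutation test, adjusted p = 1.47e-05 for both). Contact on the short arm came almost wholly from 1 Mb, at 2 to 3 Mb from the gap, where the share was 27.5% ± 31.8 (SD, n = 32), against 0 to 1.56% in the other 4 Mb.

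On 9:22 the flanks hold few bins, 25 on the short arm (42300001 to 47300000) and 21 on the long arm (65600001 to 69900000). They ran from 0% over 4.00% to 32.0% and from 0% over 4.76% to 23.8%. Their means were 6.38% ± 7.17 and 8.18% ± 7.67 (SD, n = 32) against 22.5% elsewhere (-16.2 and -14.3 points, permutation test, adjusted p = 1.47e-05 for both). These flanks held 61 and 90 recovered reads over all cells. By summed OE they were not lower: the short-arm flank had 0.878 ± 1.48 and the long-arm flank 1.33 ± 1.21 against 0.827 ± 0.216 in the other bins (SD, n = 32), so the direction there depends on the measure.

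Chromosome 16 was split. Its long-arm flank (46300001 to 51300000) was at 1.19% ± 2.43 (SD, n = 32), lower than the other bins in all 32 cells (-9.56 points, permutation test, adjusted p = 1.47e-05), and 22 cells had no contact there. Its short-arm flank (30300001 to 35300000) ran from 0% over 10.4% to 35.4%, with a mean of 11.8% ± 9.92 (SD, n = 32) against 10.7% in the other bins, a difference of 1.10 ± 8.44 points that did not pass (adjusted p = 0.492, permutation test). Within that flank contact decreased with distance, from 27.5% ± 26.0 in the first Mb to 0% at 4 to 5 Mb (SD, n = 32).

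Among the acrocentric chromosomes, 13 and 14 had low flanks, 15 and 22:9 high ones, and 21 no call. The flank of chromosome 14 (19000001 to 24000000) ran from 0% over 6.25% to 39.6%, with a mean of 9.83% ± 9.95 (SD, n = 32), -15.2 points from the other bins and lower in 31 of 32 cells (permutation test, adjusted p = 1.47e-05). That holds for the 5-Mb width: the difference was -2.20 points within 2 Mb (adjusted p = 0.417) and 5.38 points within 10 Mb (adjusted p = 0.00526, permutation tests). The flank of chromosome 15 (20000001 to 25000000, 38 bins) ran from 0% over 30.3% to 63.2%, with a mean of 30.4% ± 19.1 (SD, n = 32) against 18.3% elsewhere. It was higher in 26 of 32 cells (12.1 ± 13.5 points, permutation test, adjusted p = 2.88e-05). Its median bin had 0.956 expected reads against 5.10 in the other bins, and with any read as a contact the difference was 0.807 points (adjusted p = 0.751, permutation test). By summed OE it stayed higher, at 1.43 ± 1.07 against 0.666 ± 0.264 (SD, n = 32).

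The flank of 22:9 (16000001 to 21000000, 48 bins) ran from 0% over 0% to 6.25%, and 18 of 32 cells had no contact there. Its mean of 1.17% ± 1.58 (SD, n = 32) exceeded the 0.0313% of the other bins in 14 cells and was below it in none (permutation test, adjusted p = 0.000138). The call was lost with any read as a contact (1.29 points, adjusted p = 0.122), without the 25% of bins with the lowest expected reads (0.143 points) and by summed OE (0.0111, adjusted p = 0.0662, permutation tests). The flank of chromosome 21 ran from 0% over 23.7% to 52.6%, with a mean of 25.2% ± 15.3 (SD, n = 32) against 19.6% elsewhere (5.51 ± 16.0 points, adjusted p = 0.0693, permutation test). Other measures called it in opposite directions: it was higher by summed OE (2.02 ± 1.41 against 0.687 ± 0.318, SD, n = 32, adjusted p = 4.55e-05) and with an OE limit of 2 (7.75 points, adjusted p = 0.00214), and lower with any read (-10.9 points, adjusted p = 5.42e-05, permutation tests). With the gap of 21 placed at 11200001 to 14300000, its long-arm flank had 19.9% ± 15.3 against 19.6% (0.289 points, adjusted p = 0.902, permutation test), and the 18 bins ahead of the gap 25.9% ± 15.8 (SD, n = 32).

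The remaining flanks without a call were 5q, 6q, 7p, 10p, 12p and 12q. Their differences from the rest of the chromosome ran from -3.19 points on 6q to 4.04 points on 10p, with SDs over cells of 10.8 to 19.2 points, so differences of a few points could not be told from the spread between cells. On 5q the result depended on the gap: the flank was 3.54 points above the chromosome as defined here and -7.14 points from it (adjusted p = 0.00232, permutation test) with the pieces of the gap joined. The flank of 12q, at 2.62 points here, was 10.3 points above its chromosome with joined gaps (adjusted p = 0.000463, permutation test), and it was also higher with an OE limit of 0.5, any read, a width of 10 Mb and the 50 nearest used bins. The flanks still to be named were lower than their chromosome: 7q by -8.36 points, 10q by -12.2 points, 17p by -2.07 points (adjusted p = 0.024, permutation test) and 17q by -5.91 points. On 17p the 2 Mb beside the gap were 4.89 points above the chromosome.

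The sides of a centromere were then compared within each cell on the 16 chromosomes that have both flanks. The short-arm flank had the higher contact share on 11 chromosomes, the long-arm flank on none, and 5 (3, 9:22, 11, 12 and 20) did not pass (two-sided sign-flip permutation test over cells, Benjamini-Hochberg adjustment over 16 chromosomes). The largest difference was on chromosome 4, where the short-arm flank was 45.5 ± 16.4 points above the long-arm flank and higher in all 32 cells (permutation test, adjusted p = 3.2e-05). Chromosome 6 followed with 18.9 ± 18.1 points in 28 of 32 cells and chromosome 10 with 16.2 ± 14.0 points in 29 of 32 cells (permutation test, adjusted p = 3.2e-05 for both). On chromosome 19 the difference was 16.0 ± 18.6 points, on 5 15.3 ± 22.7 and on 16 10.7 ± 9.67, and on 1, 2, 7, 17 and 18 it lay between 2.56 and 5.81 points (SD, n = 32).

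These differences belong to the 5-Mb width and to the bins used. Within 2 Mb of the gap only 7 chromosomes had enough bins on both sides, and 6 of them differed: the short-arm flank was higher on 3 and the long-arm flank on 3, namely chromosomes 1 (-7.22 points), 6 (-13.1) and 11 (-14.2). Within 10 Mb the long-arm side was higher on 9:22 (-13.4 points), 12 (-16.2) and 18 (-18.9), against 12 of 16 chromosomes with a higher short-arm side. The long-arm flank was also higher on 12 with an OE limit of 0.5 (-9.64 points), on 11 (-11.4) and 12 (-9.26) with any read, on 9:22 (-7.31) and 12 (-10.2) with the 50 nearest used bins, and on 9:22 (-2.87) and 12 (-10.2) with joined gaps. Without the 25% of bins with the lowest expected reads 9 chromosomes could be tested, and the short-arm flank was higher on 4 of them. Chromosome 1 passed narrowly at 5 Mb (2.56 points, adjusted p = 0.0498, permutation test) and did not pass without the 3 shallow cells (adjusted p = 0.0586). Among the 16 short-arm flanks 6 (37.5%) were lower and 6 (37.5%) higher than their chromosome. Among the 21 flanks that follow their gap, acrocentric chromosomes included, 12 (57.1%) were lower and 4 (19.0%) higher. These are long-arm flanks except that of chromosome 21, which had no call and whose arm depends on the gap. With the gap of 21 placed at 11200001 to 14300000, 18 of its bins lie on the short-arm side. Of all 520 windows, 49.4% were lower and 35.6% higher, and the flanks of either side were not tested against these shares.

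**Figure D3:**
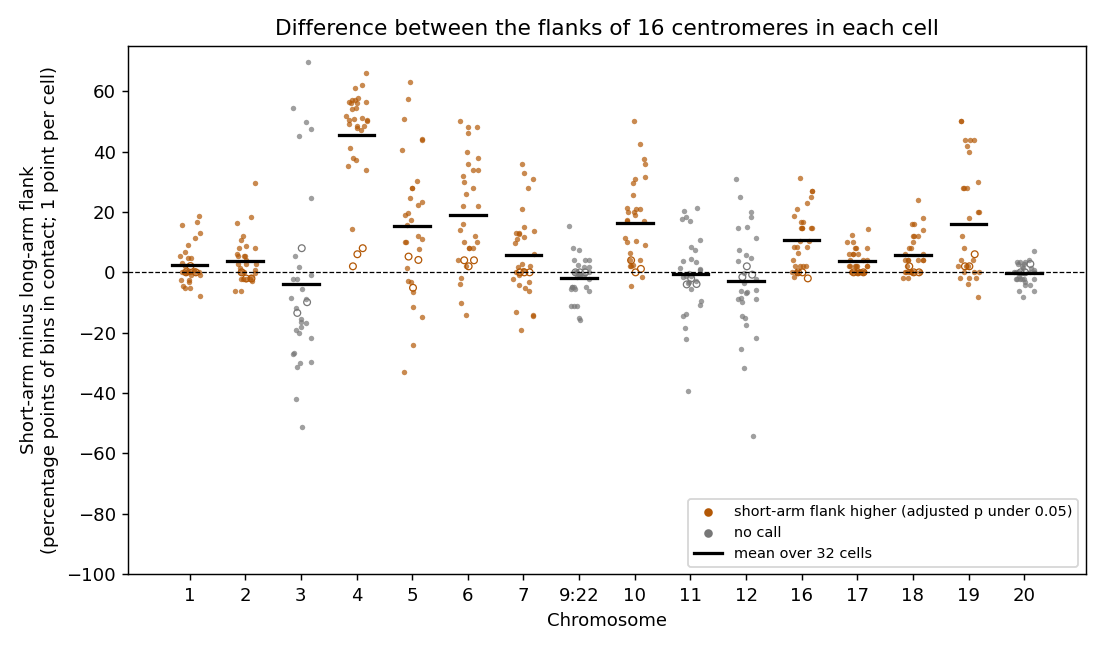
Contact share of the short-arm flank minus that of the long-arm flank (percentage points) in each of 32 cells on 16 chromosomes; each point is 1 cell, open circles are the 3 shallow cells and black bars are means. Chromosomes whose short-arm flank was higher are orange; on chromosome 4 every cell lies above 0, and on chromosome 3 cells lie far to both sides of it.

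On chromosome 3 the difference between the 5-Mb flanks did not pass (-3.82 ± 29.2 points, adjusted p = 0.529, permutation test), while within 10 Mb the short-arm side was 14.8 points higher (adjusted p = 0.000893, permutation test). Its cells differed more than those of any other chromosome. The long-arm flank was the higher one in 23 cells and the short-arm flank in 9. The 3 deeper cells with the emptiest long-arm flank, at 2.78, 8.33 and 19.4%, had 48.0, 78.0 and 74.0% of the short-arm flank in contact.

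Seen in steps of 1 Mb, the contact share of the chromosome sides stayed low well beyond the flanks. It was 14.1% ± 5.71 in the first Mb from the gap, between 17.1 and 19.7% from 1 to 5 Mb, and 13.5% ± 4.78 at 6 to 7 Mb (SD, n = 32). From 8 Mb outward it was 20.1% or more, reaching 33.5% ± 10.6 at 19 to 20 Mb. From 16 Mb outward the mean was over 35 sides instead of 37. The short arm of 18 and chromosome 22:9, at 1.25% and 0% in their last step, have no bins there. What part this has in the later values was not tested. The 5-Mb edge marked no step, with 17.7% ± 6.11 in the last 0.5 Mb inside it and 16.2% ± 5.73 in the first 0.5 Mb outside it (SD, n = 32).

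Within the flanks, the 1 Mb beside the gap had a lower share than the Mb from 4 to 5 Mb, by a difference of -3.76 ± 4.19 points that was negative in 28 of 32 cells (two-sided sign-flip permutation test, p = 1e-05). This difference did not hold when sparse bins were left out. Median expected reads were 0.932 per bin in the first Mb, and 13.9% of the bins there had no read in any cell. Without bins at 0 in every cell the difference was 1.39 points (p = 0.114, permutation test), and without the 25% of bins with the lowest expected reads it was 5.97 points (p = 0.00166, permutation test). Joining the split gaps gave 1.43 points (p = 0.0785, permutation test).

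**Figure D4:**
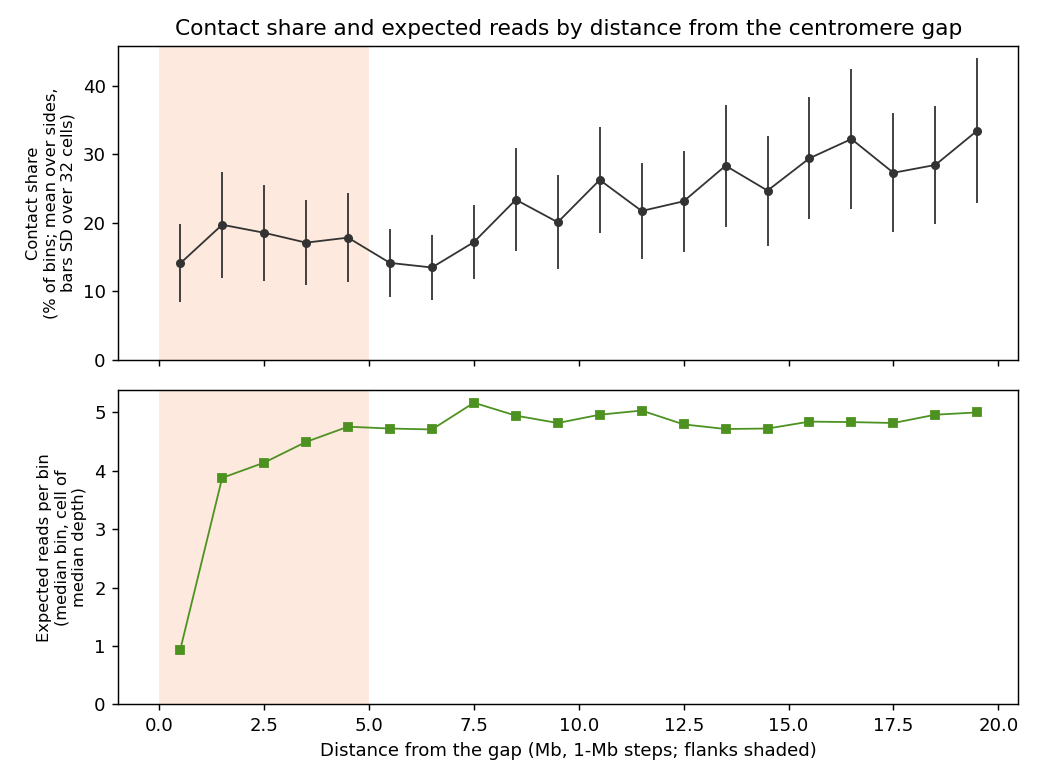
Top, contact share (percent of bins; mean over chromosome sides, bars SD over 32 cells) in 1-Mb steps from the centromere gap; bottom, expected reads of the median bin in a cell of median depth, with the flanks shaded. The share stays under 20% up to 8 Mb and reaches 33.5% at 19 to 20 Mb, while expected reads are low mainly in the first Mb. From 16 Mb outward 35 sides enter instead of 37.

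Averages over sides covered patterns that differed from one centromere to the next. On 4p, contact was 0.625% in the first Mb, 13.1% in the second and 70.6 to 84.4% from 2 to 5 Mb, while on 4q it stayed at or under 13.1% out to 7 Mb. On 6p it was 20.0 to 32.8% in the inner 3 Mb and 75.9 to 76.2% from 3 to 5 Mb, then 4.38% in the next Mb. Chromosome 11 showed the reverse order on both arms: contact was high in the first 3 Mb on the short arm (40.2 to 56.9%) and 0% from 4 to 7 Mb, and on the long arm it was highest in the first 2 Mb and at 2.19% from 4 to 5 Mb. On 12p the first 2 Mb were at 23.8 and 51.2%, followed by 2 Mb under 1% and by 35.6% at 4 to 5 Mb. On 3p contact was at 33.8% beside the gap, at 55.6% or more from 1 to 8 Mb and at 35.6% in the Mb after that.

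**Figure D5:**
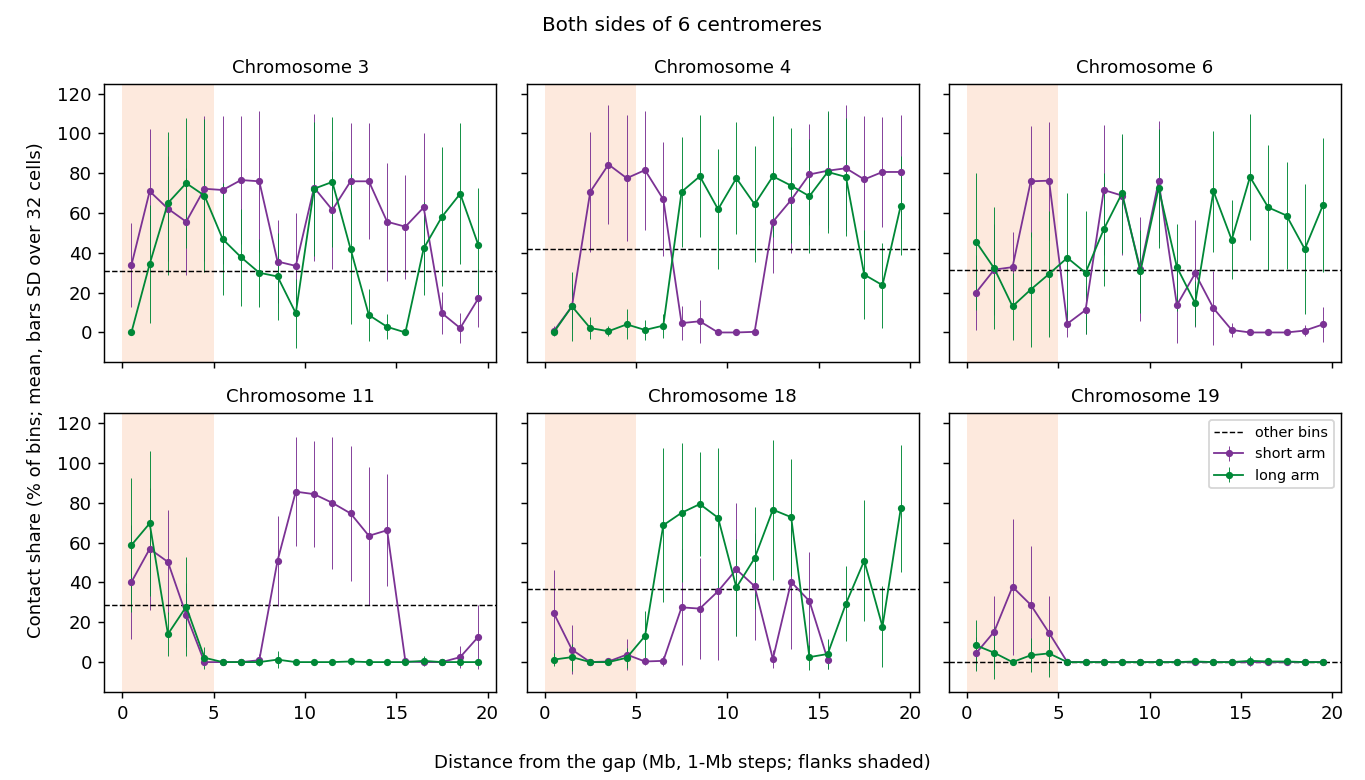
Contact share (percent of bins; mean, bars SD over 32 cells) in 1-Mb steps from the gap on the short arm (purple) and long arm (green) of 6 chromosomes, with the share of the other bins dashed and the flanks shaded. Bars are SDs and can pass 0 and 100%; the arms of chromosome 4 part within the flank, chromosome 11 is high on both sides within 2 Mb, and on chromosome 19 contact lies within the flanks.

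Bin by bin, the flanks held both bins in frequent contact and bins never in contact. Of the 1613 flank bins, 677 (42.0%) were below their chromosome and 380 (23.6%) above it (exact two-sided Poisson-binomial test, Benjamini-Hochberg adjustment over 25097 bins), where 46.9% and 30.5% of all autosomal bins were. Bins in contact in none of the 32 cells made up 43.0% of the flank bins (694 bins) and 43.0% of the other bins. Bins in contact in at least 80% of cells were 2.91% of the flank bins (47 bins) and 8.34% of the other bins. On chromosomes 16, 17, 19 and 22:9 no bin could be called below, because an average bin was expected in contact in 3.27 cells or fewer. In that order these chromosomes held 98, 99, 100 and 48 of the 1613 flank bins. Of the 23484 other bins they held 687, 680, 460 and 100. They thus weigh more among the flank bins, and the shares below of flank bins and of all bins are not like for like. The bins above their chromosome included 36 of 50 in the short-arm flank of 3 and 31 of 36 in its long-arm flank, against 36.3% of all bins of chromosome 3. In the short-arm flank of 19 they were 33 of 50, against 8.04% of the bins of chromosome 19. On 4q 35 of 36 bins were below, against 41.7% of the bins of chromosome 4.

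The longest stretches of adjacent flank bins with a frequency of at least 50% lay on 4p, 6p, 3q and 5p. Stretches were cut at the outer edge of the flank, which those of 6p and 3q reached. On chromosome 4 the stretch from 44800001 to 47400000 was 2.6 Mb long, with a mean frequency of 82.3% and single bins from 68.8 to 87.5%. On chromosome 6 it ran from 53800001 to 56200000 (2.4 Mb, mean 75.7%), with the bin of highest frequency on that flank at 90.6%. Those of chromosome 3 (94900001 to 97000000, mean 71.3%) and chromosome 5 (43800001 to 45900000, mean 71.4%) were each 2.1 Mb long. Their mean OE was 2.84 ± 0.992, 2.70 ± 1.18, 2.52 ± 1.36 and 2.49 ± 1.42 in that order (SD, n = 32). Only the stretch on 5p came within 1 Mb of the gap, at 0.5 Mb, and the other 3 began 2.3 to 2.9 Mb away. The median bin of each had 4.38 to 4.86 expected reads.

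The longest stretches of flank bins without contact in any cell lay on 20q, 17q, 13 and 18q. They too were cut at the outer edge of the flank, which that of 20q reached. Contact on 20q was still 0% from 5 to 7 Mb. That of chromosome 20 (30000001 to 34400000) covered 4.4 Mb of the 5-Mb flank, and that of 17 (25500001 to 28900000) covered 3.4 Mb. Those of 13 (20200001 to 22900000) and 18 (20300001 to 23000000) were each 2.7 Mb long. Over all 32 cells the 4 stretches held 126, 107, 134 and 117 recovered reads, with a mean OE of 0.0150 ± 0.0138, 0.0180 ± 0.0223, 0.0239 ± 0.0231 and 0.0195 ± 0.0237 (SD, n = 32). Their median bins had 3.70 to 5.12 expected reads, close to the bins of the stretches in frequent contact. At a single bin, 0 of 32 cells allows a contact frequency of up to 9.38%, a limit set by 3 counts that covers counting error only.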

How the data were processed

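Single-cell lamin B1 DamID was read from 1 table that the authors deposited, which holds ratios. The table's name gives them as OE, read here as observed over expected reads, in 100-kb bins with 1 column per cell. Per the submitters' processing notes, cutadapt, Bowtie2 2.1.0 and the build hg19 were used. The way the expectation was computed, the read filters and the handling of duplicates were not given in the sources used here. Of 35 labelled samples, 32 matched a column; samples 12, 14 and 16 had no matching column and were not used here.

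Whole reads were recovered as the largest step that divides the values of a bin, so 100% came out whole (tolerance 0.01 reads) by construction. Recovered totals give the depth, and reads after PCR are not independent molecules. Contact was an OE of 1 or more. Shares were compared over cells, since bins of 1 cell are not replicates, with two-sided sign-flip permutation tests (100000 resamples) and Benjamini-Hochberg adjustment over all 520 windows of 5 Mb with at least 10 used bins. A flank or window was set against the bins of its chromosome outside it and outside both flanks. Single bins had a two-sided exact Poisson-binomial test, with the shares of the cells on that chromosome as its probabilities. Scripts used Python 3.11.15, numpy 2.4.6, pandas 2.3.3 and scipy 1.17.1, and were tested on simulated data.

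The members, the tests and the regions described were chosen with earlier results of these data known. The rule for regions in full was the 3 flanks most above and the 3 most below their chromosome, the flanks of 1, 9:22, 16 and the acrocentric chromosomes, the 4 longest stretches at 50% or more and at 0%, and the 3 chromosomes with the largest difference between sides. Other flanks and all genes were chosen after their values were seen. Gene order is RefSeq's on GRCh38.p14, with the centromere taken as the largest space between coding genes, and no sequence is shown, since no hg19 sequence was used here. The alternatives tried were contact limits at an OE of 0.5, of 2 and of any read, widths of 2 and 10 Mb, the 50 nearest used bins, leaving out the 3 shallow cells, the 8 cells with the fewest reads, sparse bins, each chromosome or 9:22 and 22:9, other reference bins and weights and, added after seeing the data, joined gaps and summed OE.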

Additional observations from a re-analysis of the deposited data

How the results depend on the processing

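Over the 109 values of the pooled comparisons under their alternatives, 100 kept their direction and call or stayed within 1.5 times of the value given, 6 counts moved further and 3 turned. The pooled difference stayed negative under every alternative run, from -8.57 points with any read as a contact to -2.82 points with an OE of 2 or more. Leaving out the 25% of bins with the lowest expected reads kept only 758 of the 1613 flank bins, and 27 of the 37 flanks had enough bins to be tested. The flanks of 19p and 15 were not among these 27. By summed OE it was -0.0887, with flanks at 0.740 and other bins at 0.829, and 23 of 32 cells were lower (p = 0.00146, permutation test). Depth limits the first Mb beside the gaps, where 1 read often makes a contact, and the flanks of 9:22, 1q, 2p and 21, whose expected reads were lowest.

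With flanks of 2 Mb, 206 of 577 bins were below and 139 above their chromosome. With flanks of 10 Mb, 1483 of 3411 bins were below and 754 above. Of all autosomal bins, 46.9% were below and 30.5% above. The number of chromosomes whose sides differ was 6 of 7 tested within 2 Mb and 4 of 9 tested without the 25% of bins with the lowest expected reads, against 11 of 16. The difference between the first and the fifth Mb turned to 5.97 points without those bins, 1.39 points without bins at 0 in every cell and 1.43 points with joined gaps.

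Single flanks turned in 39 of 532 cases and differences between sides in 15 of 175; the causes were not tested. With an OE limit of 0.5 these were 6q (2.77 points), 12p (1.23) and the sides of 20 (2.92), and with a limit of 2 12q (-1.18) and the sides of 1 (-1.37). With any read they were 4p (-0.191), 6q (7.69), 11p (-3.57), 12p (2.28), 16p (-3.26), 21 (-10.9) and the sides of 20 (7.44). Within 2 Mb they were 4p (-35.1), 6p (-6.15), 6q (6.98), 12p (15.1), 17p (4.89) and the sides of 1 (-7.22) and 6 (-13.1). Within 10 Mb they were 4p (-1.82), 5q (-14.3), 6q (5.25), 10p (-9.79), 11q (-12.8), 14 (5.38), 16p (-5.05) and the sides of 3 (14.8), 11 (13.2), 18 (-18.9) and 20 (2.27). With the 50 nearest used bins they were 5q (-7.18), 12p (0.0943), 21 (-5.24) and the sides of 3 (1.75) and 20 (3.69). Without the 8 cells with the fewest reads they were 12p (0.849) and the sides of 20 (0.00236). Against the same arm they were 7p (3.93), 12p (7.10) and 17p (3.66), and against bins away from chromosome ends 16p (-0.731). Without the 25% of bins with the lowest expected reads they were 7p (4.03), 10p (-1.61), 11q (-3.10), 12p (1.97) and the sides of 20 (0.375). With joined gaps they were 5q (-7.14), 12p (0.0759) and the sides of 3 (1.56) and 20 (3.70). By summed OE they were the flanks of 9:22 (0.0507 and 0.503), 11p (-0.403) and 16p (-0.0515).

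Calls of single flanks were lost for 11p in 6 alternatives (0.445 to 4.66 points), 15 with any read (0.807) and within 10 Mb (3.10), 5p (3.00) and the long-arm flank of 9:22 (-3.37) within 10 Mb, 14 within 2 Mb (-2.20), 17p without bins at 0 in every cell (-1.27) and 22:9 in 3 alternatives. Flanks without a call passed the threshold in the direction given in the report under some alternative on 5q, 6q, 7p, 10p, 11q, 12p, 12q, 16p and 21, among them 11q (35.9 points) and 16p (11.2) within 2 Mb, and 6q (-8.30) and 7p (-4.61) with an OE limit of 2.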

Other observations

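Flanks also varied from cell to cell. In the 29 deeper cells, each flank's share was taken minus the cell's share on the other chromosomes, and shares were correlated across cells, as a description only, since the points share the reads and depth of a cell. Over 7 chromosomes whose flanks both had a share of 10% or more, the median correlation between the sides of a centromere was 0.541. It ran from -0.00114 on chromosome 3, the chromosome with the highest flanks, to 0.638 on chromosome 11. A flank and the next 5-Mb window of its arm had a median correlation of 0.510 over 14 pairs, and flanks of different chromosomes 0.0472 over 164 pairs. On chromosome 3 each flank went with the next window of its own arm (0.782 on the short arm and 0.709 on the long arm) while the sides did not go together. On chromosome 11 the order was the other way, with 0.312 and 0.174 for flank and next window.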
